A study of Homo sapiens with 30 samples.

Results

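The comparison of NSB day 11 with NSB day 9 covers 6 of the 30 arrays of the series, 3 for each day, chosen by their labels alone. The arrays measured messenger RNA of H9, an established human embryonic stem cell line, at days 1 to 11 of directed differentiation, with 3 arrays labelled as biological replicates in each of 10 groups. The groups set side by side here are H9 cells at day 11 and day 9 of NSB differentiation, at day 11 and day 9 of the placode differentiation labelled PIP, and at day 7 of each. The labels give no medium or agent for either arm and do not spell out NSB. In this field the letters usually stand for Noggin, which binds and blocks BMP proteins, together with a small molecule that blocks the activin, Nodal and TGF-beta receptors. All cells came from 1 line, so the data carry no second genetic background.

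Blocking BMP and activin or Nodal signals together turns pluripotent cells into neuroectoderm, and by default that neuroectoderm takes the identity of the anterior brain. The first cells are neuroepithelial progenitors, which divide while expressing PAX6, LHX2, OTX2 and the Notch effectors HES5 and HES4. Proneural factors such as NEUROG2 then switch on the Notch ligand DLL1 in single cells, which leave the cycle and become neurons, while their neighbours stay progenitors. Placodes, the aim of the PIP arm, are thickenings of the ectoderm beside the neural plate that give rise to lens, inner ear and cranial sensory ganglia.

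At day 11 of NSB, compared with day 9, 30 of 34 DNA replication genes, 18 of 26 proteasome subunits, 13 of 21 cytosolic chaperones and 11 of 20 cholesterol synthesis genes were lower. The smooth muscle actin ACTA2 was lower too, while NEUROG2, the Notch ligand DLL1 and the glucose-responsive arrestins TXNIP and ARRDC4 were higher. Of 13488 genes tested, 3312 were called higher at day 11 (24.6%) and 3587 lower (26.6%), a call being an adjusted p under 0.05 in limma's moderated test with Benjamini-Hochberg adjustment over all genes. Among them 428 were at least 2-fold higher and 510 at least 2-fold lower. In 7385 genes (54.8%) the 3 arrays of one day did not overlap those of the other. These shares are the background against which every count below is read.

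Levels are normalized log2 intensities of the brightest probe of each gene, on which a difference of 1 is a doubling. Errors of differences are standard errors from the fit, with n = 3 arrays each. The arrays of each of the 2 days correlated with each other at r of at least 0.992, and 34.0% to 35.6% of probes were detected on the 6 arrays. The day 7 arrays of NSB, used for the order of the days, were less alike, at r of at least 0.988 over all pairs, and the first of them correlated at up to 0.990 with a PIP day 7 array. The third day 11 array was the dimmest of the 6 before normalization (median intensity 53.3) and the third day 9 array the brightest (74.7). Quantile normalization gives all arrays one distribution and so sets the balance of rises and falls: 48.0% of called genes were higher at day 11, against 12.4% when arrays were scaled to the median of all probes, where the median difference of all genes was -0.33, and 64.6% when scaled to the median of detected probes, where it was 0.17. With quantile normalization that median was -0.02. Under one or both of these scalings the balance of rises and falls turned for 26 of the 48 gene lists counted. Scaling to all probes also ended the calls of ARRDC2, AXIN2, BMP4, DDIT3, EMX2, OTX2, SOX3 and TOP2A, whose rises by quantile normalization are given below. Some differences below have a side partly at background: WNT2B, KITLG and CNTN2 were detected on 2 of 3 day 11 arrays, ACTG2, CDC6 and PLXNA2 on 1 of 3, and FOSB, GADD45B, MLXIPL, OPN1SW and PLVAP on 2 of 3 day 9 arrays. A hybridisation or chip shared by the arrays of 1 day cannot be told apart from the day, since the labels give neither.

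For many called genes day 9 was the extreme of the 3 days from day 7 to day 11. Day 7 has 3 arrays of its own, and the order of the days is given as a description with no test. Among genes called higher at day 11, 1791 (54.1%) had all 3 day 9 arrays below all arrays of day 7 and day 11, a dip, and among genes called lower 1892 (52.7%) had all 3 day 9 arrays above them, a peak. Over all genes tested 14.4% dipped and 15.1% peaked at day 9. A dip requires day 9 to lie below day 11, which a called rise mostly has already, and a peak the reverse. Of 1944 dips 1791 were called rises, and of 2040 peaks 1892 were called falls. The higher shares among called genes, and among those of at least 2-fold, thus follow in large part from the call. Among the changes of at least 2-fold, 339 of 428 rises were dips and 415 of 510 falls were peaks. Genes ordered stepwise over days 7, 9 and 11, with no overlap between days, were fewer, 203 of the called rises and 280 of the called falls. Day 9 against day 7 gave 3108 higher genes (23.0%) and 3335 lower ones (24.7%), and day 11 against day 7 gave 2661 higher (19.7%) and 3289 lower (24.4%). Both share arrays with the main comparison, so a deviation of the 3 day 9 arrays counts in 2 intervals. The PIP arm had the same shape on arrays of its own, with 1961 of its called rises (60.8%) as dips and 1966 of its called falls (61.6%) as peaks. Its shares depend on its own calls in the same way.

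MVP, the major vault protein that forms most of the ribonucleoprotein vault particle, had the largest rise. The ranking took called genes without overlap between the days, detected on all 3 arrays of the brighter day. It measured 9.02, 8.72 and 8.70 on the day 11 arrays and 5.37, 5.65 and 5.37 on the day 9 arrays, a difference of 3.35 ± 0.11 or 10.2-fold (adjusted p = 3.62e-19). Its day 7 mean lay between the 2 days at 7.06. NEUROG2, the proneural transcription factor of cortical and sensory neurogenesis, measured 10.25, 10.18 and 10.45 at day 11 and 6.81, 7.30 and 7.05 at day 9, a rise of 3.24 ± 0.16 or 9.48-fold (adjusted p = 2.01e-15). All day 11 arrays were above its day 7 mean of 8.92 and all day 9 arrays below it.

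RFTN2, a lipid raft protein, measured 8.69, 8.96 and 8.71 at day 11 and 5.68, 5.49 and 5.59 at day 9. SLC16A14, a member of the monocarboxylate transporter family, measured 8.70, 8.90 and 8.98 at day 11 and 5.91, 6.05 and 5.91 at day 9. PLVAP, a diaphragm protein of fenestrated endothelium, measured 8.33, 8.42 and 8.08 at day 11 and 5.87, 5.20 and 5.33 at day 9, where 2 of 3 arrays detected it. The rises were 3.20 ± 0.14, 2.91 ± 0.13 and 2.81 ± 0.16 in that order. Days without overlap were a condition for being among the largest rises. IAPP, the islet amyloid peptide, was detected on no day 9 array and was at least 5.90-fold higher at day 11, and PKD1L2, a polycystin family member, at least 3.65-fold higher on the same terms. LDB2, a partner of LIM homeodomain factors, WDR86, the matrix protein EFEMP1, the opsin OPN1SW and the PDGF receptor PDGFRB completed the 14 largest rises with TXNIP and ARRDC4, at 2.27 to 2.65. LDB2 at day 11 averaged close to its day 7 mean of 9.99, measuring 9.91, 10.01 and 10.03, whereas its day 9 arrays gave 7.28, 7.49 and 7.22.

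**Figure D1:**
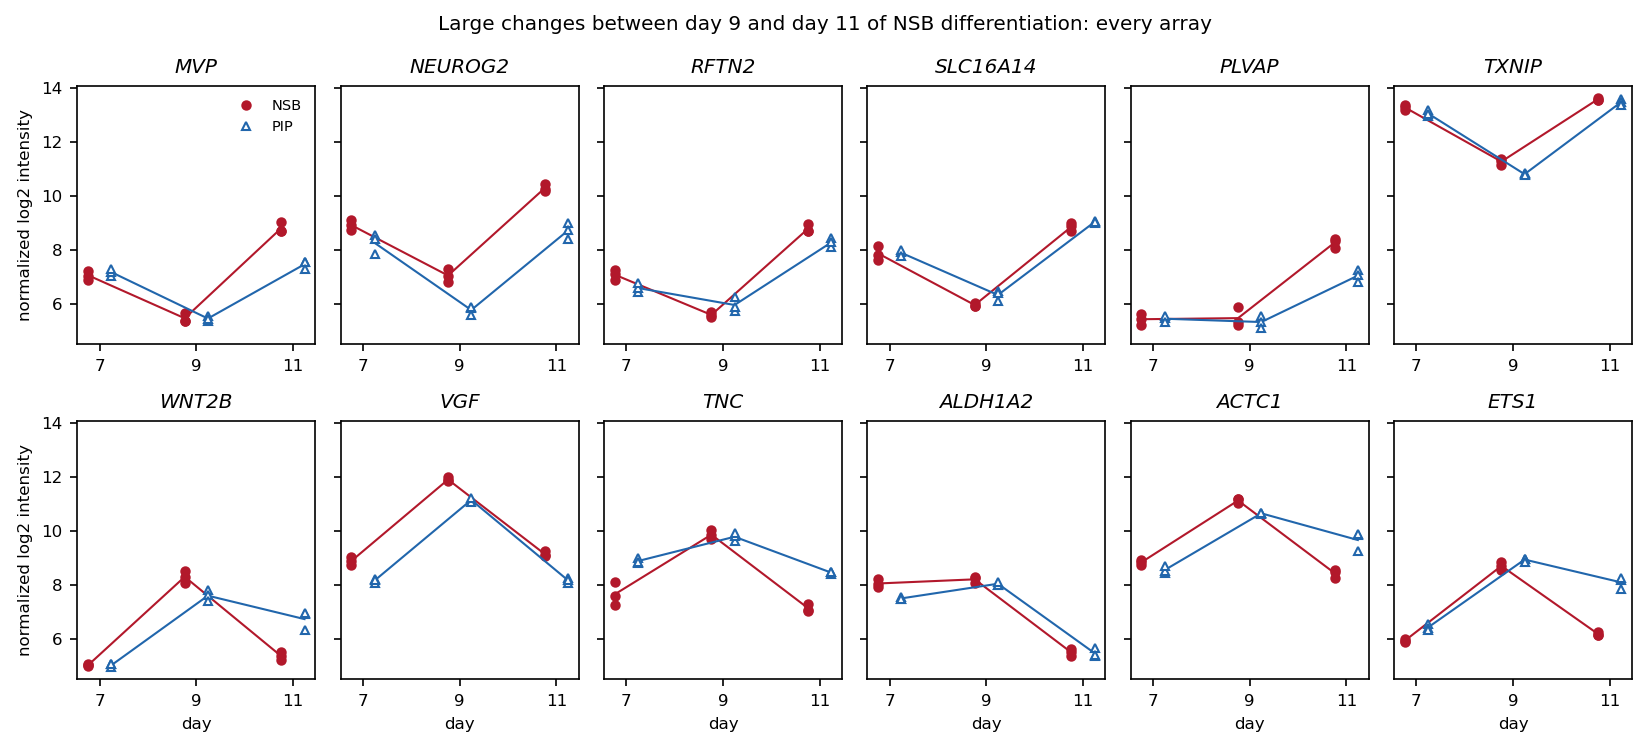
Normalized log2 intensity (vertical axis) of 12 genes with large changes, by day (horizontal axis, days 7, 9 and 11), with NSB arrays as filled circles, PIP arrays as open triangles and lines through the means of 3 arrays. NEUROG2 and TXNIP dip at day 9 in both arms, VGF peaks at day 9 in both, and WNT2B peaks more in NSB, where its day 9 arrays lie at 8.08 to 8.51 and its day 11 arrays at 5.19 to 5.51.

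WNT2B, a WNT ligand of the dorsal midline and eye margin, had the largest fall by the same rule, with 5.19, 5.35 and 5.51 at day 11 and 8.08, 8.51 and 8.30 at day 9, a difference of -2.95 ± 0.14 (adjusted p = 1.17e-15). Its day 7 mean was 5.02, so it was high only on the day 9 arrays of these 3 days. VGF, a neuronal secreted peptide precursor, measured 9.05, 9.11 and 9.27 at day 11 and 11.88, 12.01 and 11.85 at day 9 (-2.76 ± 0.09). TNC, the matrix glycoprotein tenascin C, measured 7.30, 7.07 and 7.03 at day 11 and 10.03, 9.72 and 9.84 at day 9 (-2.73 ± 0.13). Both returned near their day 7 means of 8.89 and 7.65.

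ALDH1A2, which makes retinoic acid, went another way: it measured 5.62, 5.35 and 5.49 at day 11, 8.25, 8.30 and 8.06 at day 9, and averaged 8.05 at day 7. Its difference of -2.72 ± 0.13 thus did not follow a rise of that size before day 9. ACTC1, LGALS3, the transcription factor ETS1, ARHGDIB, LRRN3, ACTG2, CDC42EP3 and the stem cell factor KITLG had differences of -2.70 to -2.37, all as day 9 peaks. KCNQ3, a potassium channel subunit, and PLAT, the tissue plasminogen activator, were detected on no day 11 array and were at least 4.76-fold and at least 4.07-fold lower there. The second, dimmer probe of KCNQ3 gave a difference of only -0.35.

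Of 12 proneural genes tested 5 rose and 2 fell, with a median difference of 0.10. NHLH1, a factor of early postmitotic neurons, measured 7.88, 7.94 and 8.05 at day 11 and 6.70, 6.87 and 6.58 at day 9, without overlap (1.24 ± 0.13). MYT1, a neurogenic zinc finger factor, rose by 0.81 ± 0.12. ELAVL3, an RNA-binding protein of neurons, was detected on all 3 day 11 arrays and on no day 9 array, at least 1.38-fold higher.

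DLL1, the Notch ligand that NEUROG2 activates, measured 11.70, 11.58 and 11.54 at day 11 and 10.34, 10.31 and 10.23 at day 9, a rise of 1.31 ± 0.08 (adjusted p = 6.08e-14), and it was stepwise from day 7 at 10.08. DLL3 rose by 1.19 ± 0.12 and the ligand JAG2 by 1.21 ± 0.14. Among effectors HES4 rose by 1.20 ± 0.10, with 12.72, 12.81 and 12.75 at day 11 and 11.50, 11.58 and 11.59 at day 9. HES5 measured 12.81, 12.49 and 12.72 at day 11 and 12.35, 12.31 and 12.37 at day 9, which did not pass the test (0.33 ± 0.16, adjusted p = 0.0887). Its larger step lay before, since its day 7 mean was 8.07. HES1 fell by 1.11 ± 0.12. In the whole Notch list 7 of 18 rose and 4 fell, with a median of 0.33 that was -0.06 under scaling to the median of all probes.

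Genes of more mature neurons fell more often than they rose. In the neuronal differentiation list 14 of 25 fell and 6 rose (median -0.42), 10 of the 25 as day 9 peaks. TUBB3, the neuronal beta tubulin, measured 9.55, 9.61 and 9.38 at day 11 and 10.89, 10.81 and 10.78 at day 9, a fall of 1.31 on the log2 scale (adjusted p = 2.48e-10). DCX, a microtubule protein of migrating neurons, had 7.38, 7.26 and 7.21 at day 11 and 7.88, 7.90 and 8.04 at day 9 (-0.66 ± 0.11). GAP43, of growth cones, changed by -1.35 ± 0.13 and CNTN2, an axonal adhesion molecule, by -1.42 ± 0.16. The exceptions included MAP2, the dendritic microtubule protein, with 10.61, 10.66 and 10.47 at day 11 and 8.82, 9.18 and 9.15 at day 9 (1.53 ± 0.10), and TAGLN3 (1.16 ± 0.11), the last named after its values were seen. RTN1 had 1.46 ± 0.09 by one probe and 0.40 ± 0.17 by another of nearly the same brightness.

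Of 20 synapse and secretory granule genes 7 fell and 6 rose, near the background shares. SNAP25, a protein of vesicle fusion, measured 5.55, 5.94 and 5.91 at day 11 and 7.89, 8.10 and 7.96 at day 9, with a day 7 mean of 5.07. The granule protein SCG2 and the fusion regulator CPLX1 were detected on no day 11 array and were at least 2.24-fold and at least 3.48-fold lower. GAD2, which makes GABA, changed by -1.84 ± 0.09. Summed over the 28 neuronal markers on the array, linear intensity was 19132 to 21355 at day 11 and 25275 to 26615 at day 9. In bulk RNA, fewer neurons and less of these RNAs per cell cannot be told apart.

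**Figure D2:**
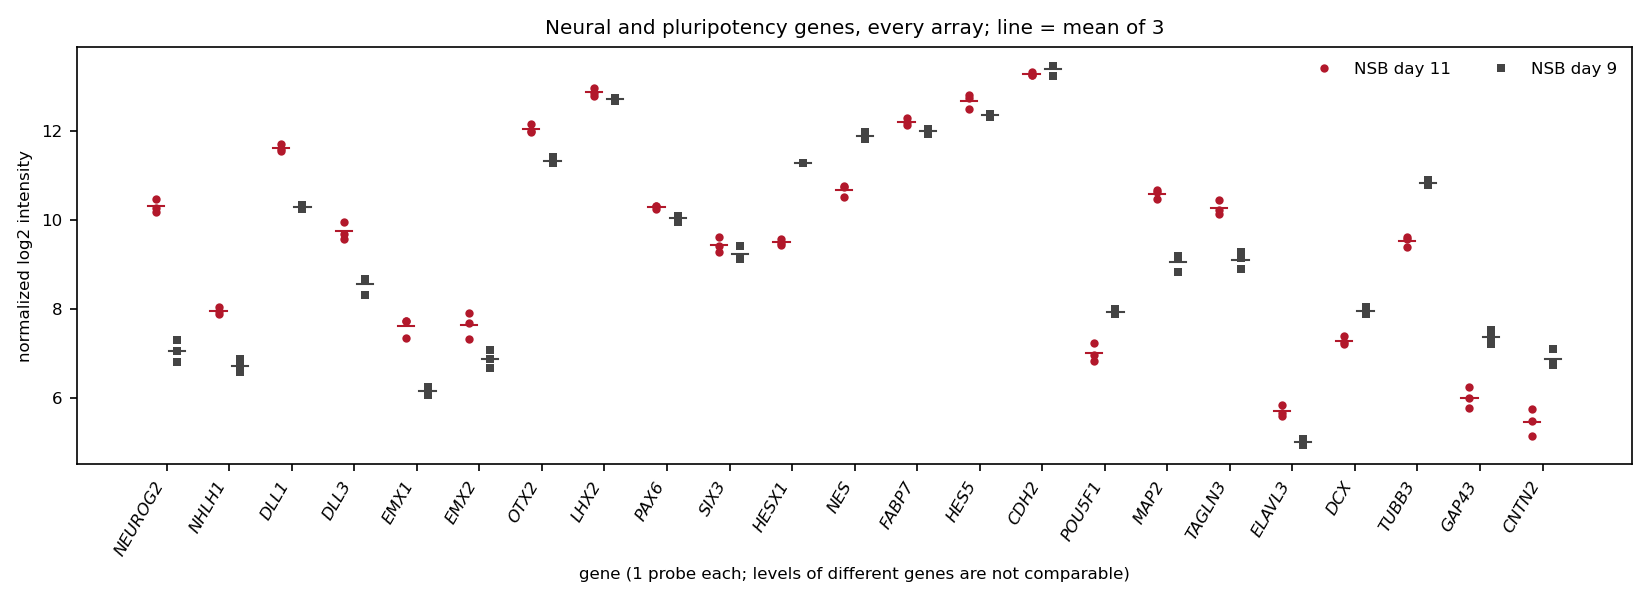
Normalized log2 intensity (vertical axis) of 23 neural and pluripotency genes (horizontal axis), with every NSB day 11 array as a circle to the left and every NSB day 9 array as a square to the right, lines marking means of 3. NEUROG2, DLL1 and MAP2 are higher at day 11 without overlap, TUBB3, DCX and GAP43 lower without overlap, and CDH2 and SIX3 overlap between the days.

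Forebrain genes moved both ways, as did all genes, of which 24.6% were higher and 26.6% lower. Of 22 anterior neural and forebrain genes 8 rose and 5 fell (median 0.19). Scaled to the median of all probes the counts were 1 and 10, so for this list the direction depended on the scaling. EMX1, a marker of the dorsal telencephalon, measured 7.73, 7.35 and 7.73 at day 11 and 6.24, 6.05 and 6.17 at day 9 and rose stepwise from 5.88 at day 7 (1.45 ± 0.11). EMX2, its relative, named after its values were seen, was stepwise too, at 0.76 ± 0.18. OTX2, of fore- and midbrain, rose by 0.72 ± 0.10, with 11.96, 11.99 and 12.16 at day 11 and 11.40, 11.29 and 11.27 at day 9, and had averaged 12.13 at day 7. HESX1, an early factor of the anterior neural ridge and pituitary, measured 9.42, 9.56 and 9.48 at day 11, 11.26, 11.28 and 11.27 at day 9 and 11.96 on average at day 7, a stepwise loss (-1.79 ± 0.17 over the last interval). LHX5 (-1.23 ± 0.15) and VAX1 (-1.13 ± 0.19), both of the early forebrain, fell as well.

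LHX2 measured 12.97, 12.77 and 12.85 at day 11 and 12.74, 12.70 and 12.67 at day 9, which did not pass the test (0.16 ± 0.11, adjusted p = 0.226) and was -0.37 under scaling to the median of all probes. PAX6, of eye and cortex, had 10.30, 10.31 and 10.23 at day 11 and 10.08, 10.08 and 9.95 at day 9, called at 0.24 ± 0.09. The call was lost without the first day 11 array (0.23), the second (0.23) or the third day 9 array (0.20), and the difference was -0.28 under that same scaling. RAX, of the eye field, was at 11.19, 10.90 and 10.78 on day 11 against 10.50, 10.52 and 10.74 at day 9 and SIX3 at 9.40, 9.28 and 9.61 on day 11 against 9.41, 9.12 and 9.15 at day 9, neither of them called (adjusted p = 0.0872 and 0.247). Further back along the axis, PAX8 and GBX2 of the midbrain and hindbrain border fell by 1.40 and 1.27 on the log2 scale, both day 9 peaks. In the list of midbrain, hindbrain and spinal cord genes 1 of 12 rose and 4 fell (median -0.07). These counts became 0 and 7 under scaling to the median of all probes, and 4 and 3 on detected probes. MITF of pigmented retina was detected on all 3 day 11 arrays and on no day 9 array, at least 1.24-fold higher.

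Of 23 progenitor genes 5 rose and 5 fell, near the background shares. That balance became 0 rises and 15 falls under scaling to the median of all probes. NES, the intermediate filament of neural progenitors, measured 10.73, 10.50 and 10.75 at day 11 and 11.86, 11.97 and 11.80 at day 9 (-1.22 ± 0.12). SOX3, a progenitor transcription factor, rose stepwise to 11.53, 11.41 and 11.47, against 10.78, 10.75 and 10.65 at day 9. FABP7, a fatty acid carrier of radial glia, was at 12.11, 12.28 and 12.19 at day 11 and 12.05, 12.02 and 11.93 at day 9, not called (adjusted p = 0.0555) and -0.33 under scaling to the median of all probes. Its day 7 mean was 10.23. Day 11 against day 7 had 18 of the 23 higher and 2 lower. The neural cadherin CDH2 measured 13.24 to 13.32 at day 11 and 13.23 to 13.45 at day 9, and the epithelial cadherin CDH1 was detected on no array of either day.

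The cell cycle genes split by phase. Of 34 genes of DNA replication and S phase 30 fell and 0 rose, against a background of 26.6% lower, and their median was -0.60. Of 34 genes of G2 and mitosis 19 rose and 3 fell, with a median of 0.33, which became -0.18 with 3 rises and 13 falls under scaling to the median of all probes. Relative to the median of all genes the G2 and mitosis list was higher, and the S phase list lower, under each of the 5 scalings tried. These are not 5 separate checks. Both median scalings multiply each array by a constant, so they give the same values against all genes by construction (0.15 and -0.77). The settings without background correction and with the compared arrays alone kept quantile normalization.

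CDC6, the loader of the replicative helicase, measured 5.28, 4.90 and 5.15 at day 11 and 6.50, 6.43 and 6.54 at day 9, and with 1 of 3 day 11 arrays detecting it the size of its fall is not well measured. RRM2, the regulated subunit of ribonucleotide reductase, had 7.48, 7.13 and 7.17 at day 11 and 8.66, 8.46 and 8.64 at day 9. GINS3, part of the helicase itself, had 8.30, 8.20 and 8.31 at day 11 and 9.42, 9.60 and 9.43 at day 9 (-1.21 ± 0.08, adjusted p = 2.67e-13). UHRF1, which guides DNA methylation to new strands, fell by 1.13 on the log2 scale. None of these 4 overlapped between the days, and each peaked at day 9. MKI67, a general proliferation marker, was at 7.44, 7.28 and 7.46 at day 11 and 7.39, 7.43 and 7.51 at day 9 (adjusted p = 0.754).

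PRC1, a bundler of the mitotic midzone, measured 11.28, 11.42 and 11.42 at day 11 and 10.51, 10.35 and 10.30 at day 9 (0.99 ± 0.09). KIF20A, a kinesin of cytokinesis, measured 10.68, 10.71 and 10.65 at day 11 and 9.75, 9.73 and 9.75 at day 9, and KIF2C, a microtubule-depolymerising kinesin, rose by 0.97 ± 0.09. TOP2A, the topoisomerase of chromosome separation, had 12.16, 12.29 and 12.27 at day 11 and 11.58, 11.33 and 11.41 at day 9. All 4 were dips, as were 19 of the 34. Against day 7 no G2 and mitosis gene was higher at day 11 and 26 were lower.

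**Figure D3:**
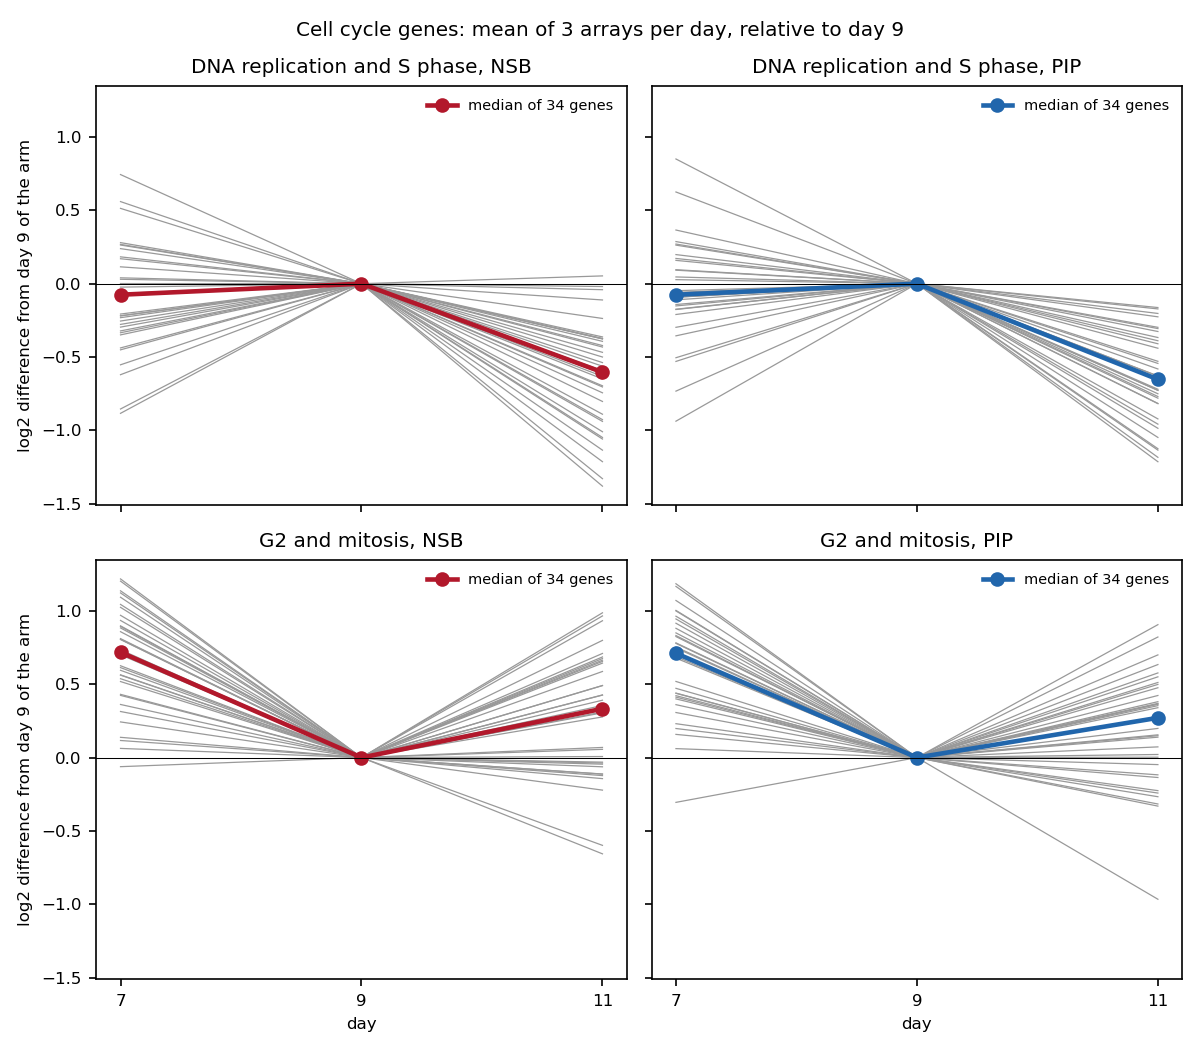
Difference of each gene's mean from day 9 of its arm on the log2 scale (vertical axis) by day (horizontal axis), for the 34 DNA replication and S phase genes (upper panels) and the 34 G2 and mitosis genes (lower panels) of NSB (left) and PIP (right), with the median as a thick line. The S phase median in NSB lies at -0.08 on day 7 and -0.60 on day 11, and the G2 and mitosis median at 0.72 on day 7 and 0.33 on day 11.

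The promoters of these groups differ in letters that are known from the cell cycle. E2F factors, which drive S phase genes, bind sites such as TTTCCCGC, TTTGGCGC or TTTCGCGC, and mitotic genes are repressed outside G2 through the element TTTGAA, called CHR, often with CCAAT boxes beside it. The next promoters show both kinds, 300 bases around the gene start and most of them before it, from RefSeq (GRCh38.p14), 5′ to 3′ on the strand of the gene. CDC6 (chr17:40287629-40287928, plus strand) and GINS3 (chr16:58392221-58392520, plus strand) fell and have the E2F letters in capitals. PRC1 (chr15:90994486-90994785, minus strand) and TOP2A (chr17:40417847-40418146, minus strand) rose and have the CHR and CCAAT letters in capitals, on either strand. These promoters were picked as the largest changes among those that hold the E2F or CHR letters. RRM2 (-1.33) fell more than GINS3 (-1.21) and has no E2F match. KIF2C (0.97) and KIF20A (0.93) rose more than TOP2A (0.80) and have no CHR match.
CDC6: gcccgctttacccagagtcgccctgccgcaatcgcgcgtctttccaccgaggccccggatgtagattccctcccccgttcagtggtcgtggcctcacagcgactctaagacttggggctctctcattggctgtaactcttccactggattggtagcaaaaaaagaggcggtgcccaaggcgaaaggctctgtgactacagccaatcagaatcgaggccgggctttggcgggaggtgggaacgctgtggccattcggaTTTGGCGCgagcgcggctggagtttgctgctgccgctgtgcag
GINS3: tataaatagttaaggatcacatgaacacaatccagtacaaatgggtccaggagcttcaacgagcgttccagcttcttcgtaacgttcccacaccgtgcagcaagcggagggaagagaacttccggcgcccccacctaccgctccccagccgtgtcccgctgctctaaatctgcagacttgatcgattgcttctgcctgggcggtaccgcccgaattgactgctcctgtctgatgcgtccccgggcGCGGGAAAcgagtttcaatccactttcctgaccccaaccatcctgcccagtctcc
PRC1: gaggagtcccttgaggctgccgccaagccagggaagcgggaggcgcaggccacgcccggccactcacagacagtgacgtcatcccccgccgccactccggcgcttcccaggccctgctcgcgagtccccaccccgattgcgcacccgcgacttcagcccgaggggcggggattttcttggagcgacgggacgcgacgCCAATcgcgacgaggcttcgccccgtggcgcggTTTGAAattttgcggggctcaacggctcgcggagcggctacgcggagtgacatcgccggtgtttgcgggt
TOP2A: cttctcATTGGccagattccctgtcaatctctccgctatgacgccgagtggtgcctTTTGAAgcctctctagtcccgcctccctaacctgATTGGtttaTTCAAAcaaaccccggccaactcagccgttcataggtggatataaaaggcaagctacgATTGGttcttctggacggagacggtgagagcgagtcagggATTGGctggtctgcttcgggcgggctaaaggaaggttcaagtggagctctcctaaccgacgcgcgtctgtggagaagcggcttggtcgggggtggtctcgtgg

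Searched on both strands, the 3 E2F letterings occurred in 17 of the 31 S phase promoters matched (54.8%), in 16 of the 27 whose genes fell, in 3 of 28 G2 and mitosis promoters in 4.36% of the promoters of 10897 genes tested and in 2.74% of 35116 RefSeq promoters of that length. TTTGAA occurred in 19 of 28 G2 and mitosis promoters (67.9%), in 9 of the 16 whose genes rose (56.2%), in 1 of 31 S phase promoters, in 10.2% of those tested and in 15.2% of all. Within the G2 and mitosis list these letters were thus less common among the genes that rose than over the whole list. CCAAT occurred in 23 of 28 G2 and mitosis promoters (82.1%), in 19 of 31 S phase promoters, in 36.7% of those tested and in 34.6% of all. Matches of 1 motif were counted whether or not they overlapped another. A match describes these windows and shows no binding.

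Among cell cycle inhibitors CDKN1C, which holds cells in G1, measured 8.63, 8.73 and 8.58 at day 11 and 7.54, 7.71 and 7.43 at day 9 (1.09 ± 0.11). GADD45B, a stress-induced growth arrest gene, rose by 1.46 ± 0.12, and TP53I3, a p53 target, fell by 1.53. Over the list of inhibitors and p53 targets 7 of 26 rose and 5 fell, near the background shares. Of 12 histone genes 7 rose and 1 fell, with a median of 0.35 that was -0.11 under scaling to the median of all probes. H2BC21, an H2B gene whose transcripts can carry a poly(A) tail, was at least 4.15-fold higher, with 7.37, 7.17 and 7.30 at day 11 and no day 9 array detecting it. Histone genes have near-identical copies, so a probe may read several of them.

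Of 22 BMP pathway genes 11 rose and 3 fell with quantile normalization, with a median of 0.25, while scaling to the median of all probes turned the balance to 4 rises and 7 falls. The median was then 0.01, and it was 0.51 on detected probes. ID1, the inhibitor of differentiation that BMP receptors switch on, measured 11.15, 11.01 and 11.10 at day 11 and 9.29, 9.27 and 9.01 at day 9, a rise of 1.89 ± 0.08 (adjusted p = 5.88e-17), with a day 7 mean of 10.35. SMAD6, a feedback inhibitor, had 7.67, 7.91 and 7.89 at day 11 and 6.73, 6.58 and 6.72 at day 9. The ligand BMP4 rose by 0.80 ± 0.13 and the antagonist GREM1 changed by -1.01 ± 0.11. Both antagonist and ligand had day 9 and day 11 arrays apart.

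The FGF and ERK list gave 5 rises and 8 falls among 21. DUSP6, the phosphatase that ERK induces against itself, measured 6.79, 6.92 and 6.21 at day 11 and 8.37, 8.51 and 8.76 at day 9 (-1.90 ± 0.19), with a day 7 mean of 6.08. PHLDA1 and the receptor antagonist SPRY2 changed by -1.70 ± 0.09 and -1.25 ± 0.11, both peaking at day 9. IL17RD, another FGF antagonist, ran the opposite way: 9.65, 9.80 and 9.94 at day 11, 8.36, 8.47 and 8.33 at day 9, and 7.00 on average at day 7. FGF8, the ligand of the anterior neural ridge, was at 10.06, 10.07 and 10.22 at day 11 and 10.23, 10.18 and 10.11 at day 9 (adjusted p = 0.786). Of 17 immediate early genes 8 rose and 3 fell, with a median of 0.22 that was -0.14 under scaling to the median of all probes. ATF3 (1.01 ± 0.08) and FOSB (0.97 ± 0.17) rose stepwise, while MYC had 8.05, 7.76 and 7.76 at day 11 and 9.16, 9.26 and 9.30 at day 9.

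In the WNT list 11 of 29 fell and 5 rose (median -0.22), and 8 fell and 9 rose under scaling to the median of detected probes. Besides the ligand WNT2B the falls included the potentiator RSPO1, at least 1.87-fold lower, and the antagonist DKK1, at 6.12, 6.31 and 5.72 on day 11, 7.19, 6.57 and 7.01 on day 9 and 8.80 on average at day 7. AXIN2, the feedback target read most often for WNT activity, rose by 0.55 ± 0.11 and NKD2, an inhibitor, by 1.40 ± 0.10. The retinoic acid degrading enzyme CYP26A1 changed by -1.31 ± 0.09, stepwise from a day 7 mean of 12.06, beside the fall of the synthesising ALDH1A2. In the retinoic acid and HOX list 3 of 18 rose and 3 fell.

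Of 17 pluripotency genes tested 7 fell, 1 rose and 9 were not called (median -0.19), and 6 were stepwise over days 7, 9 and 11. POU5F1, the central pluripotency factor, measured 6.82, 6.95 and 7.23 at day 11, 7.88, 7.99 and 7.88 at day 9 and 9.09 on average at day 7 (-0.91 ± 0.09, adjusted p = 2.00e-09). A second probe of POU5F1 gave -0.71 and another, dim one 0.15, and since near-identical POU5F1 pseudogenes exist, its probes may read them too. NANOG was detected on all 3 day 9 arrays and on no day 11 array, at least 1.08-fold lower. ZFP42 (-0.73 ± 0.10) and, by its brighter probe, the de novo methyltransferase DNMT3B (-0.86 ± 0.10) also declined in steps. A second probe of DNMT3B gave -0.01 ± 0.14. No pluripotency gene was higher at day 11 than at day 7, and 13 were lower.

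Genes of nutrient sensing and stress followed, several of them in lists that moved 1 way. All 6 arrestins and MondoA targets tested rose (median 0.58, and 0.36 under scaling to the median of all probes, where 3 were called). TXNIP, which curbs glucose uptake and binds thioredoxin, measured 13.58, 13.57 and 13.65 at day 11 and 11.30, 11.38 and 11.17 at day 9, a rise of 2.32 ± 0.08 or 4.99-fold (adjusted p = 1.25e-18). Its day 7 mean was 13.30. ARRDC4, its relative, had 10.29, 10.21 and 10.10 at day 11 and 7.62, 7.63 and 8.02 at day 9 (2.44 ± 0.13). MLXIPL, a glucose-sensing factor of the same family as MondoA, rose by 0.64 ± 0.14 and ARRDC2 by 0.52 ± 0.14.

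The factors of that family bind the carbohydrate response element, a pair of E boxes here searched as 2 copies of CACGNG with 5 bases between them, on both strands. The TXNIP promoter (chr1:145996530-145996829, minus strand, RefSeq GRCh38.p14) holds it, in capitals. This promoter was picked by name, not by the size of the rise, and is shown because it holds the letters.
TXNIP: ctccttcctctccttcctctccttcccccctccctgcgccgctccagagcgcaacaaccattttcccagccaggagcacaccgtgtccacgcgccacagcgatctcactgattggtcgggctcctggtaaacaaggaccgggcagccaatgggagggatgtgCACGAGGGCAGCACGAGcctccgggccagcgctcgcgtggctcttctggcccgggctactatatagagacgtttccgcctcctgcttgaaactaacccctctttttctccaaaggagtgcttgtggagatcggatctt
It was the only one with these letters among the 5 promoters matched for the arrestins and MondoA targets. The letters occur in 18 of the 10897 promoters of genes tested (0.165%) and in 20 of all 35116 (0.057%). In the other 4 the letters are not in this window.

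**Figure D4:**
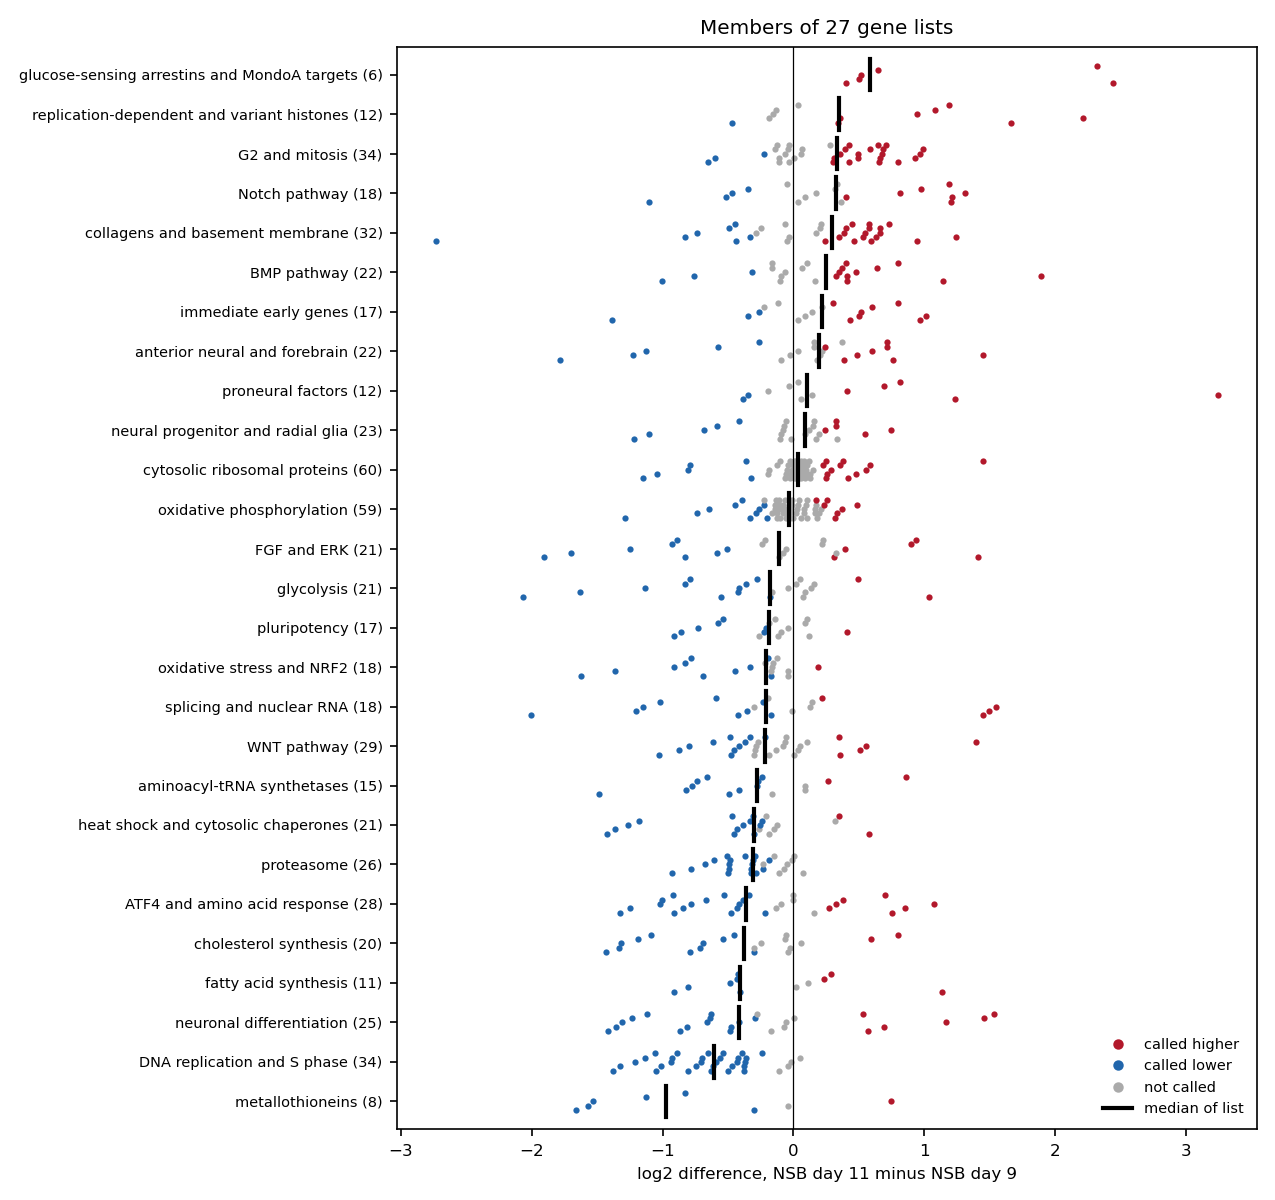
Difference of each tested gene, NSB day 11 minus NSB day 9, on the log2 scale (horizontal axis) for 27 gene lists (vertical axis, number of genes in brackets), coloured by call, with the median of a list as a black bar. The 27 were chosen from the 48 lists. Lists not drawn include neural crest (median -0.03) and axon guidance (0.01). The arrestins and MondoA targets lie to the right with a median of 0.58, and metallothioneins (-0.98), S phase genes (-0.60) and neuronal genes (-0.42) to the left.

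Cholesterol synthesis fell in 11 of 20 genes and rose in 2 (median -0.38), 10 of them peaking at day 9. HMGCS1, an early enzyme of the pathway, measured 11.24, 11.36 and 11.41 at day 11 and 12.18, 12.05 and 12.16 at day 9 (-0.79 ± 0.07). SQLE, its epoxidase, had 8.01, 7.81 and 7.75 at day 11 and 9.18, 9.10 and 9.25 at day 9, and ACAT2 changed by -1.43 ± 0.09. Fatty acid synthesis gave 6 falls and 3 rises among 11, with FASN at -0.81 ± 0.16 and ACSS2, which makes acetyl-CoA from acetate, at 1.14 ± 0.08.

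Amino acid response genes regulated by ATF4 fell in 16 of 28 and rose in 7 (median -0.36). ATF5 measured 9.08, 9.08 and 9.11 at day 11 and 10.38, 10.43 and 10.42 at day 9 (-1.32 ± 0.09). DDIT3 and GDF15 of the same list rose stepwise, by 0.70 ± 0.11 and 1.07 ± 0.13. Against day 7, 13 of the list were higher and 4 lower at day 11. Among aminoacyl-tRNA synthetases 10 of 15 fell and 2 rose, led by WARS1 with 8.53, 8.43 and 8.54 at day 11 and 9.96, 9.97 and 10.02 at day 9.

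Cytosolic chaperones fell in 13 of 21 and rose in 2 (median -0.30), 10 of them day 9 peaks. HSPH1 measured 10.84, 10.87 and 10.79 at day 11 and 12.19, 12.16 and 12.26 at day 9, so that the day 11 arrays lay close to the day 7 mean of 10.78. HSPA8 had 12.45, 12.66 and 12.61 at day 11 and 13.83, 13.66 and 13.77 at day 9, and CCT5, of the actin and tubulin folding ring, changed by -1.43 ± 0.08. Of 26 proteasome subunits 18 fell and 0 rose (median -0.31), by at most 0.93 on the log2 scale, in PSMA2. NRF2 targets fell in 10 of 18 and rose in 1, with NQO1 at 7.74, 7.86 and 7.68 on day 11 and 9.34, 9.41 and 9.39 on day 9.

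Metallothioneins, small metal-binding proteins, had the lowest median of the 48 lists (-0.98), with 6 of 8 lower and 1 higher. MT2A measured 8.67, 8.78 and 8.92 at day 11 and 10.37, 10.42 and 10.19 at day 9, and MT1F 9.70, 9.90 and 9.81 at day 11 against 11.63, 11.41 and 11.36 at day 9. Their sequences are alike, so a probe may read more than 1 of them. Glycolysis gave 11 falls and 2 rises among 21. HK2, a hexokinase, changed by -2.07 ± 0.11 and the glucose transporter SLC2A1 by -1.13 ± 0.11, though at 9.83, 9.82 and 9.68 on day 11 SLC2A1 remained above its day 7 mean of 7.33. The hypoxia list was mixed, 8 up and 10 down of 27. ADM, a vasodilator peptide induced by hypoxia, had 9.40, 9.28 and 9.07 at day 11 and 11.32, 11.54 and 11.45 at day 9, whereas P4HA1, a collagen hydroxylase, rose by 1.31 ± 0.11 by its bright probe and had -0.66 by a dimmer one.

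SRSF3, a splicing factor, had 10.17, 10.28 and 10.39 at day 11 and 12.21, 12.30 and 12.34 at day 9, while its relative SRSF5 rose by 1.45 ± 0.11, with LUC7L3 and PNISR also rising. The splicing list gave 9 falls and 4 rises among 18. Ribosomal proteins (12 up, 6 down of 60) and oxidative phosphorylation (7 up, 10 down of 59) had smaller shares called than all genes, but not under every scaling. On detected probes 35 ribosomal protein genes rose and 7 fell, and under scaling to the median of all probes 50 of 59 oxidative phosphorylation genes fell and 0 rose. The Polycomb component CBX7 rose by 1.76 ± 0.11, with 7.61, 7.52 and 7.50 at day 11 and 5.91, 5.65 and 5.81 at day 9.

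Collagen and basement membrane genes rose in 17 of 32 and fell in 7, with a median of 0.30 that was -0.09 under scaling to the median of all probes. COL5A2 measured 9.89, 9.82 and 9.69 at day 11 and 8.59, 8.51 and 8.58 at day 9, and the laminin LAMA5 12.73, 12.55 and 12.56 at day 11 against 11.74, 11.60 and 11.67 at day 9. ACTA2, smooth muscle actin, averaged 10.14 ± 0.12 at day 11 and 12.05 ± 0.11 at day 9 (SD, n = 3 each), and TAGLN, an actin-binding protein of smooth muscle, changed by -1.71 ± 0.09. Actin genes are close copies, so a probe named for ACTC1, ACTG2 or ACTA2 may read more than 1 of them.

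ACTA2 and TAGLN are also in the list of mesoderm and mesenchyme markers. Summed over the 21 of these on the array, linear intensity was 6599 to 7251 at day 11, 13004 to 14634 at day 9 and 4881 to 5267 at day 7. Such a sum is weighted to its brightest members. Of the 16 tested, 5 rose and 3 fell, with a median difference of 0.06, and 3 rose and 6 fell under scaling to the median of all probes. Of the 21, 12 were detected on all 3 day 11 arrays and 11 on all 3 day 9 arrays, while 7 were detected on none at each day, and TBX6, MIXL1 and GSC were below the filter. PDGFRB (2.27 ± 0.12) and FOXC2 (1.08 ± 0.11) rose in the same list. Markers of endothelium and blood summed to 1141 to 1271 at day 11 and 1720 to 1790 at day 9, with PECAM1, TAL1, GATA1 and PTPRC below the filter. VWF of that list, stepwise over the days, fell by 1.58. The part of such cells in the other results was not tested. Pluripotency markers summed to 28585 to 29004 at day 11 and 30894 to 32585 at day 9, and placode and non-neural ectoderm markers to 11318 to 12498 at day 11 and 12617 to 13252 at day 9.

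Probes of 1 gene did not always give the same value. Besides POU5F1, KCNQ3, P4HA1, RTN1 and DNMT3B, a dimmer probe differed by over 0.5 on the log2 scale in 9 other genes named here or in the closing section. CYP26A1 had -2.06 by its next brightest probe and -0.01 by the dimmest. The dimmer probe gave 1.14 for EFEMP1, 0.42 for DLL3, 0.31 for PKD1L2, 0.12 for LUC7L3 and ACSS2, 0.03 for BMP4, -0.41 for EDNRB and -0.54 for TP53I3.

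The PIP arm gives the same interval on 6 other arrays. It had 3227 genes higher (23.9%) and 3190 lower (23.7%). Of the NSB rises 2374 were rises in PIP too (71.7% of the NSB list, 73.6% of the PIP list), and of the NSB falls 2422 (67.5% and 75.9%), while 41 and 52 were called in the opposite direction. The S phase list fell in 30 of 34 genes in PIP as well, G2 and mitosis rose in 17, and TXNIP and NEUROG2 rose there by 2.68 and 2.95. The difference between the arms' changes was called for 1093 genes (8.10%). Of these, 313 were called in NSB alone, 295 in PIP alone, 387 in both in the same direction and 93 in opposite directions, which left 5 called in neither.

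BMP pathway genes differed between the arms in 9 of 22, 8 of them with the higher change in NSB (5 of 8 under scaling to the median of all probes, which moved the median difference of all genes between the arms to -0.40). ID1 rose by 1.89 in NSB and had -0.37 in PIP, a difference of 2.26 (adjusted p = 4.76e-14). SMAD6 rose by 1.14 in NSB and 0.36 in PIP. In PIP 5 BMP genes rose and 9 fell. FGF and ERK genes differed in 8 of 21, 7 of them with the higher change in NSB, a balance that scaling to all probes turned to 3 higher and 4 lower. FGF8 had -0.06 in NSB and fell by 1.33 in PIP, a difference of 1.28 (adjusted p = 0.000244), and IL17RD rose by 1.41 in NSB and 0.35 in PIP. Metallothioneins differed in 4 of 8, all with the lower change in NSB (5 of 8, all lower, under scaling to all probes), where MT2A changed by -1.53, against -0.04 in PIP.

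**Figure D5:**
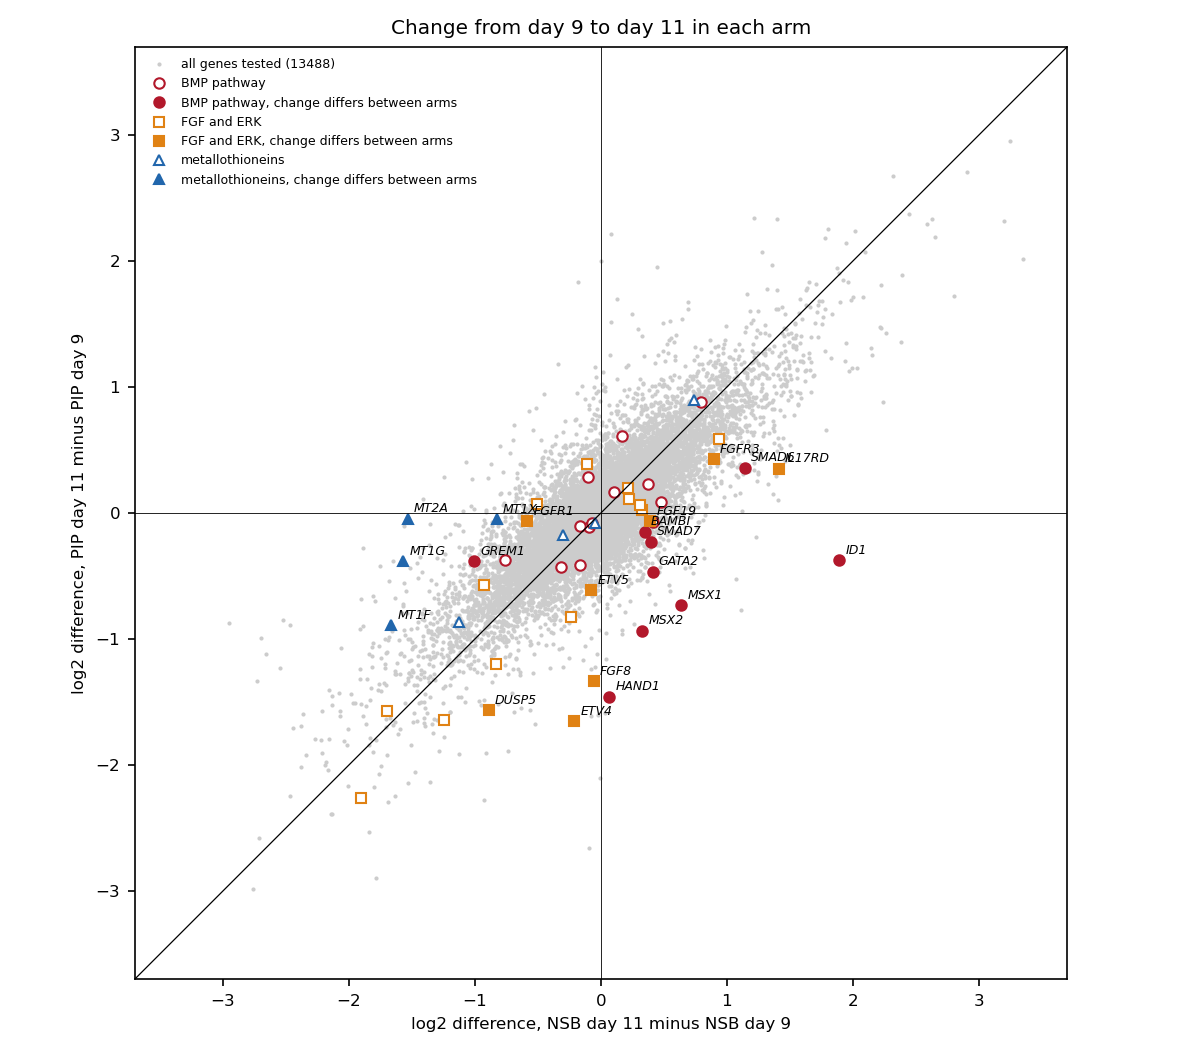
Difference of each gene between day 11 and day 9 on the log2 scale in NSB (horizontal axis) and PIP (vertical axis), for 13488 genes in grey and the members of 3 lists in colour, filled where the change differs between the arms. ID1 lies far to the right of the diagonal at 1.89 in NSB and -0.37 in PIP, and MT2A far to the left at -1.53 and -0.04.

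Several of the largest NSB falls were deeper than in PIP. WNT2B fell by 2.95 in NSB and by 0.87 in PIP, ETS1 by 2.53 in NSB and 0.85 in PIP, and ARHGDIB by 2.47 in NSB and 0.89 in PIP. F2RL2, a thrombin receptor relative, was at least 1.68-fold lower at day 11 in NSB and rose by 0.29 in PIP. KCNK12, a potassium channel, rose by 1.07 ± 0.10 in NSB and had -0.53 in PIP. Of the 10 genes with the lowest adjusted p for the difference, RERG, VGLL2, CST1 and HAND1 were detected on no NSB array of either day. No NSB change was called for them, and their PIP changes were -2.66, -2.10, -1.61 and -1.46 in that order. POU5F1 and HESX1 fell in both arms, POU5F1 with -0.91 in NSB and -1.90 in PIP and HESX1 with -1.79 in NSB and -2.89 in PIP. CNTN2 fell in NSB, while PIP had 0.11, and NHLH1 rose in NSB, while PIP had 0.26, with adjusted p of 4.39e-05 and 0.000603 for the differences. MEG3, an imprinted long RNA, rose by 1.23 ± 0.20 in NSB and had -0.19 in PIP.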

How the data were processed

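Expression was read on 30 Illumina bead arrays of H9 cells, 6 of them NSB day 11 and day 9. For 48701 probes the deposited table without normalization gives, per the file headers, a mean bead intensity and a detection p-value, and the authors made it in GenomeStudio, per the submitters' processing notes, with neither background subtraction nor normalization of the intensity values. A deposited processed table of intensities served as an alternative.

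Background was corrected with normexp from the detection p-values (neqc, limma 3.58.1, R 4.3.3, offset 16), followed by quantile normalization over 30 arrays. Probes with p under 0.05 on at least 3 arrays and 1 gene name were kept, each gene by its probe with the highest mean, which left 13488 genes (1613 with at least 2 probes, 106 of them with opposite calls). One mean per group was fitted over 10 groups (20 residual degrees of freedom). P-values measure the spread between arrays labelled biological replicates and 0 arrays were identical. "At least" folds set each array of a group that never detected the probe to no less than its lowest detected value.

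Genes named are the 14 largest rises and falls, up to 4 called genes per list, a fixed panel and the 10 lowest adjusted p between the arms, with exceptions marked. The 48 lists (1147 genes, 936 tested, 102 below the filter, 109 not analysed here), their members and this rule were chosen with earlier results of these data known. Promoter sequences came from the RefSeq table of GRCh38.p14 and matched 10897 genes. The fits were checked on simulated arrays. Alternatives were 5 scalings in all, 2 filters on dim probes, means over probes, the arrays entering the fit, a replicate block, robust moderation and each array left out.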

Additional observations from a re-analysis of the deposited data

Results flagged for a closer look

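The change between day 9 and day 11 differed between the NSB and PIP arms, by the test of the difference itself (limma, Benjamini-Hochberg adjusted p under 0.05), for 54 of the genes named above. Values are the NSB change minus the PIP change on the log2 scale, and no explanation was tested. All of them rest on the 12 arrays of both arms and both days.

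Differences above 1 with the higher change in NSB were found for ID1 (2.26), KCNK12 (1.59), MEG3 (1.42), MVP (1.33), FGF8 (1.28), HESX1 (1.11), PLVAP (1.08), IL17RD (1.06) and OPN1SW (1.02). Differences beyond -1 with the lower change in NSB were found for WNT2B (-2.08), ACTC1 (-1.71), ETS1 (-1.68), ARHGDIB (-1.58), LGALS3 (-1.54), CNTN2 (-1.52), MT2A (-1.49), TNC (-1.40) and DKK1 (-1.27).

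Smaller differences with the higher change in NSB were those of POU5F1 (0.989), NHLH1 (0.982), NKD2 (0.904), RFTN2 (0.877), EMX1 (0.849), PDGFRB (0.837), SMAD6 (0.781), GDF15 (0.769), DLL3 (0.717), SRSF5 (0.682), EFEMP1 (0.497), KIF2C (0.467), LDB2 (0.466) and RTN1 (0.441). Those with the lower change in NSB were ACTA2 (-0.994), HK2 (-0.991), MT1F (-0.778), KITLG (-0.774), ACTG2 (-0.738), GREM1 (-0.625), CLDN6 (-0.62), TAGLN (-0.596), TAGLN3 (-0.578), MYC (-0.488), NQO1 (-0.429) and TXNIP (-0.36). In POU5F1 and HESX1 both arms fell and NSB fell less.

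For 10 of the 54 genes the fit called a difference although some day of an arm was at background, so the fitted values give no size. RERG (2.56), VGLL2 (2.10), CST1 (1.58) and HAND1 (1.53) were detected on no NSB array of either day, so only the PIP change was measured. PKD1L2 (1.36) and MITF (-0.762) were detected on no day 9 array of either arm, H2BC21 (0.736) on no NSB day 9 array, F2RL2 (-1.53) and KCNQ3 (-1.31) on no NSB day 11 array and GAD2 (0.697) on no PIP day 11 array.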

How the results depend on the processing

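The count of genes called between NSB day 11 and day 9 (6899) lay between 6134 and 8439 under all 17 alternatives, with 65.3% of the original calls kept under scaling to the median of all probes and 86.8% on detected probes, where 79 and 4 calls turned to the opposite direction. Leaving out 1 array at a time gave 6267 to 6580 calls for this comparison, 5803 to 5979 for PIP, 5852 to 6382 for NSB day 9 against day 7, 5268 to 6128 for day 11 against day 7 and 781 to 1198 for the difference between the arms. The difference between the arms, 1093 genes, moved furthest: 4934 under scaling to all probes, with 2.43% of them higher in NSB against 43.4% in the original, 1849 on detected probes with 78.3% higher, 643 with normalization over the compared arrays alone and 638 with only those arrays in the fit. Day 11 against day 7 (5950) gave 3923 and 3827 under those last 2 settings, both of which leave only the compared arrays to estimate the spread. Its share higher was 44.7%, and 12.8% and 59.3% under the scalings to all and to detected probes, and that of day 9 against day 7 was 48.2% and became 63.0% under the first. The cause of these shifts was not tested. Replicate numbers did not pair the arrays, with correlations of -0.05, 0.02 and -0.25 between the same numbers of day 11 and day 9, and a replicate block gave 6834 calls. For the 150 named genes 2500 of 2540 alternative values kept direction and call, 19 lost the call, 15 gained it and 6 reversed, namely FABP7 (-0.33), LHX2 (-0.37) and PAX6 (-0.28) under scaling to all probes, and CST1 (0.48), RERG (0.44) and VGLL2 (0.51), at background in NSB, on detected probes. The calls of ELAVL3, FOSB, MEG3, MYT1, PAX6 and PAX8 were lost with the deposited processed values, that of TAP1 under scaling to all probes and that of NANOG on detected probes, with directions kept. Genes detected on no array of a day carry only a bound, and dim probes have understated folds.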

Other observations

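Genes of adhesion and guidance changed in both directions between day 9 and day 11 of NSB, as did all genes tested. Of all genes 24.6% were higher and 26.6% lower, so these lists do not stand out by their counts. Of 32 axon guidance genes 6 rose and 9 fell, which became 1 and 16 under scaling to the median of all probes and 12 and 7 on detected probes. ROBO3, a receptor that lets commissural axons cross the midline, measured 8.16, 7.96 and 8.28 at day 11 and 6.93, 6.71 and 6.65 at day 9, a difference of 1.37 ± 0.11, and averaged 8.12 at day 7. PLXNA2, a semaphorin receptor, had -1.25 ± 0.14 and SEMA6A, a semaphorin, -1.01 ± 0.10. In 10 of the 32 the change differed between the arms, and in 9 of these it was lower in NSB than in PIP, against 16 of 16 under scaling to all probes, 5 of 8 on detected probes and 5 of 6 with the deposited processed values. Of 27 adhesion genes 4 rose and 8 fell, against 0 and 17 under scaling to all probes and 8 and 8 on detected probes. CLDN6, a tight junction protein of early epithelia, measured 7.52, 7.42 and 7.67 at day 11 and 8.97, 9.07 and 8.83 at day 9, and the protocadherin PCDH19 had -1.20 ± 0.11.

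Growth factor, interferon and crest lists did not stand out by their counts from all genes, of which 24.6% were higher and 26.6% lower. IGFBP3, which binds insulin-like growth factors, measured 11.16, 11.23 and 11.23 at day 11 and 12.40, 12.47 and 12.71 at day 9, against a day 7 mean of 9.00, in a list where 7 of 20 rose and 5 fell (2 and 9 under scaling to all probes). IFIT1, an interferon-induced protein, had 8.71, 9.00 and 9.00 at day 11 and 10.17, 10.48 and 10.05 at day 9, whereas the antigen presentation genes HLA-E and TAP1 rose by 0.85 ± 0.08 and 0.75 ± 0.11. In the antigen presentation and interferon list 6 of 21 rose and 3 fell (1 and 13 under scaling to all probes). Of 18 neural crest genes 6 rose and 5 fell (3 and 8 under scaling to all probes), with the endothelin receptor EDNRB at -1.01 ± 0.11, stepwise from day 7. Hedgehog genes (2 rises and 1 fall of 9) and TGF-beta, Nodal and activin genes (2 rises and 1 fall of 13) held few called members.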
